A study of Homo sapiens with 10 samples.

Results

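The cysteine and aspartic cathepsins and the inhibitor cystatin C were followed in 2 glioblastoma cell lines in which the homeobox transcription factor MEOX2 had been lowered or raised. The members were chosen by gene name alone and number 10 of the 34567 genes in the deposited table: the cysteine cathepsins CTSB, CTSC, CTSF, CTSH, CTSK, CTSL, CTSS and CTSZ, the aspartic cathepsin CTSD and the inhibitor gene CST3. The question was whether CTSS, the member that the study singled out from these same libraries, moved alone among them. Because of that choice, the test of CTSS below is not independent evidence of its direction. The study also followed CTSS by RT-PCR. By immunoblot it reported lower CTSS protein with MEOX2 silencing and higher CTSS protein with MEOX2 overexpression.

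SNB19 and U87 are established human glioblastoma lines, and all cells were grown in serum-containing medium. SNB19 cells, which express MEOX2, received a scramble siRNA (SNB19-NC, 3 libraries) or the MEOX2 siRNA that the titles call m3 (SNB19-siMEOX2, 3 libraries), both by lipofection. U87 cells, whose control libraries held no MEOX2 read, received an empty lentiviral vector (U87-EV, 2 libraries) or the MEOX2 overexpression lentivirus (U87-OE, 2 libraries). The study describes its siRNA transfection as transient, and its lentiviral cells as stable lines selected with puromycin over weeks. The m3 group rests on 1 siRNA as far as the labels tell, and nothing in them says that the libraries of a group came from separate cultures, so p-values measure only the spread between these libraries, which may be technical.

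Cathepsins are proteases made as inactive precursors, sorted to endosomes and lysosomes largely by mannose 6-phosphate receptors, and activated there by cleavage in acid. CTSB, CTSL, CTSS and CTSK cut within proteins, CTSC, CTSH and CTSZ trim ends, and CTSD is the main aspartic endopeptidase of the lysosome. CTSS stays active at neutral pH, processes the invariant chain for antigen presentation and is best known from myeloid cells, and cystatin C is a secreted inhibitor of the cysteine cathepsins that does not act on CTSD. In gliomas, secreted cathepsins are known for cutting extracellular matrix.

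The libraries held 12533775 to 16560324 counted reads. MEOX2 itself followed the labels: it had 249, 224 and 275 counts in SNB19-NC and 54, 40 and 49 in SNB19-siMEOX2, a log2 fold change of -2.42 ± 0.14 (SE, n = 3 per group; edgeR adjusted p = 9.1e-05). It had 0 counts in both U87-EV libraries and 4999 and 5308 in U87-OE, which is at least 1430-fold above the floor of 3 counts per library. MEOX2 thus stood at 6.54 ± 0.536 FPKM (SD, n = 3; FPKM, fragments per kilobase of exon, scaled to the library's depth) in SNB19-NC and at 152 ± 10.2 FPKM (n = 2) in U87-OE, so the 2 experiments cover different ranges of the factor. Its paralogue MEOX1 was also lower in SNB19-siMEOX2, with 134, 129 and 125 counts in SNB19-NC and 44, 22 and 30 in SNB19-siMEOX2, a log2 fold change of -2.06 ± 0.25 (SE; edgeR adjusted p = 0.00182). MEOX1 had 2 and 2 counts in U87-EV and 0 and 0 in U87-OE. Its part in the member results in SNB19 was not tested.

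The intermediate filament gene VIM was high in both lines, with a mean of 161 FPKM in SNB19-NC and 84.1 FPKM in SNB19-siMEOX2, and of 464 FPKM in U87-EV and 118 FPKM in U87-OE. The 7 glioma and astroglial markers that it leads summed to 212 to 214 FPKM in SNB19-NC and 106 to 111 FPKM in SNB19-siMEOX2, and to 318 and 749 FPKM in the 2 U87-EV libraries and 185 to 187 FPKM in U87-OE. The astroglial genes S100B and ALDH1L1 were listed at 0 in every U87 library. Of 11 microglia and macrophage markers, 10 were in the table and their summed level was 0.569 to 6.06 FPKM in any library, with C1QA at 0 in all SNB19 and all U87-EV libraries. That sum was 5.25 to 6.06 FPKM in SNB19-NC and 1.78 to 2.27 FPKM in SNB19-siMEOX2, and 2.62 to 3.49 FPKM in U87-EV and 0.569 to 1.04 FPKM in U87-OE, with CSF1R the highest in each group. Endothelial markers (3 genes) summed to 5.1 to 5.68 FPKM in SNB19-NC and 0.784 to 1.17 FPKM in SNB19-siMEOX2, epithelial markers (4 genes, led by KRT8 and KRT18) to 68.9 to 74.2 and 49.8 to 56.8 FPKM, and neuronal markers (4 genes) to 0.951 to 4.36 FPKM in any library. The part of these genes in the member results was not tested.

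The first U87-EV library (U87-EV 1) stood apart from the other 9. Ribosomal protein genes took 14.81% of its counts against 4.61% to 7.49% elsewhere, and its correlation with U87-EV 2 across genes was 0.865, where the other replicate pairs reached 0.992 to 0.995. Relative to U87-EV 2, genes with under 1 kb of exon had a median log2 ratio of 1.54 and genes with 8 kb or more one of -0.71. The members shifted by unequal amounts between the 2 libraries on the TMM-scaled count scale, from 4.62-fold more CTSD, 3.39-fold more CST3, 2.22-fold more CTSF and 1.91-fold more CTSL in U87-EV 1 to a ratio of 1.0 for CTSS and 0.907 for CTSH. Because all 10 libraries shared 1 estimate of the spread, this library also widened the errors in SNB19. Results are therefore given for all 10 libraries and without U87-EV 1, and the latter leaves a single U87-EV library that is assumed to vary like the others.

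**Figure D1:**
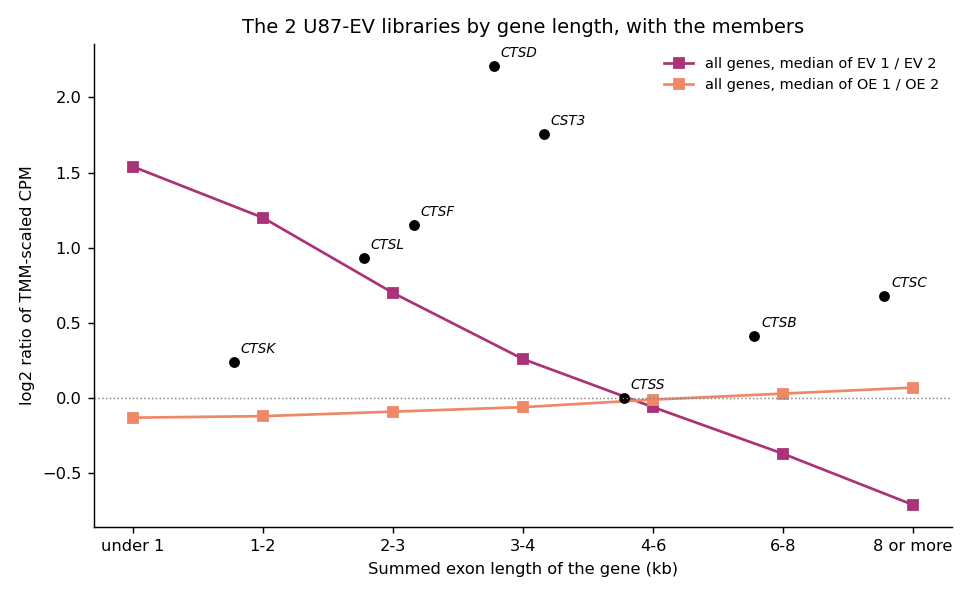
Median log2 ratio of TMM-scaled CPM (count per library scaled to depth) between the 2 U87-EV libraries (purple) and between the 2 U87-OE libraries (orange), by summed exon length of the gene in kb, with 8 members as black points placed in their length class. The U87-EV ratio falls from 1.54 for the shortest genes to -0.71 for the longest, the U87-OE ratio stays between -0.13 and 0.07, and CTSD and CST3 lie far above their class.

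Positions are given for 9 members on GRCh38 (GENCODE release 29), leaving out that of CTSB. CTSS (ENSG00000163131, chr1:150730196-150765957, minus strand) and CTSK (ENSG00000143387, chr1:150796208-150808323, minus strand) are neighbours with 30250 bases between them. CTSL lies at chr9:87725519-87731393, CTSC at chr11:88293592-88337787, CTSF at chr11:66563463-66568841 and CTSH at chr15:78921058-78949574. CTSD lies at chr11:1752752-1764573, CTSZ at chr20:58995185-59007247 and CST3 at chr20:23626706-23638473. CTSD has 3126 exonic bases and shares some with a protein-coding gene on the same strand and an antisense gene. The overlap is 1797 bases summed over both genes, and a base shared with both counts for each. Its counts are therefore less certain than those of the other 9, which share none.

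The study placed a stretch upstream of CTSS in a reporter as its site 3. By ChIP-qPCR the study reported MEOX2 recruitment to this region. It also reported that MEOX2 silencing lowered CTSS promoter activity in the reporter, but not with site 3 mutated. The stretch is printed here because it is the one CTSS regulatory sequence at hand. Its capitals mark TAAT, the core that homeodomain proteins prefer, or its reverse complement ATTA. The RefSeq promoters (GRCh38.p14, the 250 bases before the start) of CTSD and CTSF follow, with CACGTG in capitals, the E-box core bound by factors of the TFEB and MITF family that act on lysosomal genes.
CTSS site 3: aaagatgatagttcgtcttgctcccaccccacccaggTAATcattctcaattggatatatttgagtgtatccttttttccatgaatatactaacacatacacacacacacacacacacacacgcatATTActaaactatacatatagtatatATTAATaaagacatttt
CTSD promoter, chr11:1763928-1764177, minus strand: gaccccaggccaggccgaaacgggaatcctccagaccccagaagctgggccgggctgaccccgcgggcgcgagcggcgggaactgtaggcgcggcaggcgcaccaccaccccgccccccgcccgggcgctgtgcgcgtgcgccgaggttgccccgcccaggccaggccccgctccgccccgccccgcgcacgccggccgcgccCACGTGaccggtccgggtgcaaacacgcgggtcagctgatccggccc
CTSF promoter, chr11:66568607-66568856, minus strand: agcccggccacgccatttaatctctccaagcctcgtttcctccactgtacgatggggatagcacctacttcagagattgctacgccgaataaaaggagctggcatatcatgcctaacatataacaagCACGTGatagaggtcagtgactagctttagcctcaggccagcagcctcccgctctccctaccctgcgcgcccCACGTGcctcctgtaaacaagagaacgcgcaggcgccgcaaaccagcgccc
The 169 bases of site 3 held 4 matches to TAAT on either strand, of which the last 2 overlap, and no match to TAATTA. The TAAT core was also present, with at least 1 match, in 40.3% of 35116 RefSeq promoters cut to the same 169 bases, so its presence is common. Those stretches lie within 250 bases of the start, whereas site 3 lies farther upstream. Site 3 also held fewer G and C bases, 33.1% against 56.4% to 81.2% in the member promoters at hand. The share is therefore only a rough background for site 3. Promoters of 7 members were in the table used (CTSC, CTSD, CTSF, CTSH, CTSL, CTSZ and CST3). Among them TAAT was found in 1, TAATTA in 0 and CACGTG in 2, where 47.4%, 4.35% and 6.34% of all promoters of 250 bases held these letters on either strand. The longer form TCACGTGA, which contains CACGTG, was in 0 of the 7 and in 0.854% of all. These matches describe letters and say nothing of binding.

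In SNB19, lowering MEOX2 was accompanied by lower CTSS and CTSK and by a smaller decrease of CTSB. Of the 9 members tested, 3 were called changed at an adjusted p under 0.05, all of them lower, where 15.7% of all 17312 genes tested were called. Of all called genes 44.4% were higher with TMM scaling, 55.2% with upper-quartile scaling and 57.9% with limma on log2(FPKM + 0.1). The median log2 fold change was -0.44 over the 9 members and -0.0 over all genes tested. CTSZ did not pass the filter on low counts. In this cell culture bulk RNA, fewer cells of a kind and less RNA per cell cannot be told apart.

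CTSS was at 7.07, 5.95 and 7.1 FPKM in SNB19-NC and at 1.43, 1.42 and 1.17 FPKM in SNB19-siMEOX2. The groups lie far apart, and CTSS fell to 1.34 ± 0.143 FPKM from 6.71 ± 0.657 FPKM (SD, n = 3). The log2 fold change was -2.41 ± 0.13 (SE; edgeR adjusted p = 5.93e-05), close in size to that of MEOX2 itself. Of the 17312 genes tested, 257 changed by at least as much in either direction.

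CTSK, the collagen-cutting cathepsin of osteoclasts, was the only other tested member with a change of more than 1 on the log2 scale. Its levels were 4.51, 4.21 and 4.71 FPKM in SNB19-NC and 1.99, 1.48 and 1.96 FPKM in SNB19-siMEOX2. Every treated library was below every control, and the log2 fold change was -1.39 ± 0.15 (SE; edgeR adjusted p = 0.000759). CTSK counts were low here, 109 to 141 per control library and 40 to 59 per treated library. The difference between CTSS and CTSK in size of fall was not tested.

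CTSB, an abundant endopeptidase, was at 85.4, 85.8 and 86.7 FPKM in SNB19-NC and at 66.7, 68.1 and 67.1 FPKM in SNB19-siMEOX2. The 2 groups are tight and do not overlap. Its log2 fold change was -0.44 ± 0.13 (SE; edgeR adjusted p = 0.0468), and that narrow call was lost whenever 1 SNB19 library was left out (adjusted p 0.121 to 0.159) and with RLE or upper-quartile scaling (0.0502 and 0.0899). It was far past the threshold without U87-EV 1, as given below.

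CTSL went the other way. This endopeptidase stood at 41.2, 41.4 and 44.9 FPKM in SNB19-NC and at 68.9, 71.5 and 71.7 FPKM in SNB19-siMEOX2, again without overlap. Its log2 fold change of 0.64 ± 0.20 missed the threshold with all 10 libraries (edgeR adjusted p = 0.0619). On the same libraries CTSL was called higher with upper-quartile scaling (edgeR adjusted p = 0.0456) and with no filter (0.0211). It was also called by DESeq2 (0.0205) and by limma on log2(FPKM + 0.1) and log2(FPKM + 1) (0.00709 and 0.00544). The call was missed with RLE scaling (0.0577), the stricter filter (0.0513) and the replicate block (0.136).

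CTSD and CST3 had lower levels in the treated cells. CTSD was at 96.6, 99.1 and 98.5 FPKM in SNB19-NC and at 66.8, 60.2 and 58.9 FPKM in SNB19-siMEOX2. CST3 was at 64.0, 65.5 and 60.3 FPKM and at 45.0, 38.1 and 34.3 FPKM. Neither gene's groups overlap, yet the errors of the shared fit were wide, with log2 fold changes of -0.75 ± 0.42 for CTSD (edgeR adjusted p = 0.273) and -0.78 ± 0.35 for CST3 (0.173). Both are genes on which U87-EV 1 and U87-EV 2 differ most among the members.

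The remaining members were not called with all 10 libraries. CTSC, which activates granule serine proteases, was at 13.8, 13.9 and 14.2 FPKM against 10.4, 11.0 and 11.3 FPKM (log2 -0.44 ± 0.16, edgeR adjusted p = 0.0922). CTSH, an aminopeptidase, was at 7.74 to 8.54 FPKM in SNB19-NC and 9.09 to 11.6 FPKM in SNB19-siMEOX2, and CTSF at 4.81 to 5.43 FPKM and 5.29 to 5.91 FPKM. Their log2 fold changes were 0.20 and 0.07, with 95% intervals of -0.26 to 0.66 and of -0.53 to 0.67. CTSZ, a carboxypeptidase, had 10, 10 and 8 counts in SNB19-NC and 4, 4 and 5 in SNB19-siMEOX2, and with no filter its log2 fold change was -1.13 with a 95% interval of -2.51 to 0.26.

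Without U87-EV 1 the fold changes in SNB19 were nearly the same and the errors shrank. With 49.7% of all genes then called, 7 of the 9 members were: CTSS (-2.40 ± 0.11), CTSK (-1.39 ± 0.14), CST3 (-0.77 ± 0.07), CTSD (-0.74 ± 0.06), CTSC (-0.44 ± 0.06) and CTSB (-0.43 ± 0.05) were lower, and CTSL (0.65 ± 0.06) was higher. Their edgeR adjusted p-values ran from 1.52e-15 for CTSS to 3.32e-07 for CTSC. The 6 SNB19 libraries fitted alone gave the same 7 plus CTSH (0.21 ± 0.08; edgeR adjusted p = 0.0393), with 51.2% of all genes called. Beside so broad a background a count of called members says little, and the members differed mainly in size. In that fit 1.53% of all genes changed more than CTSS, against 7.24% for CTSK, 21.2% for CST3 and 42.0% for CTSB.

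**Figure D2:**
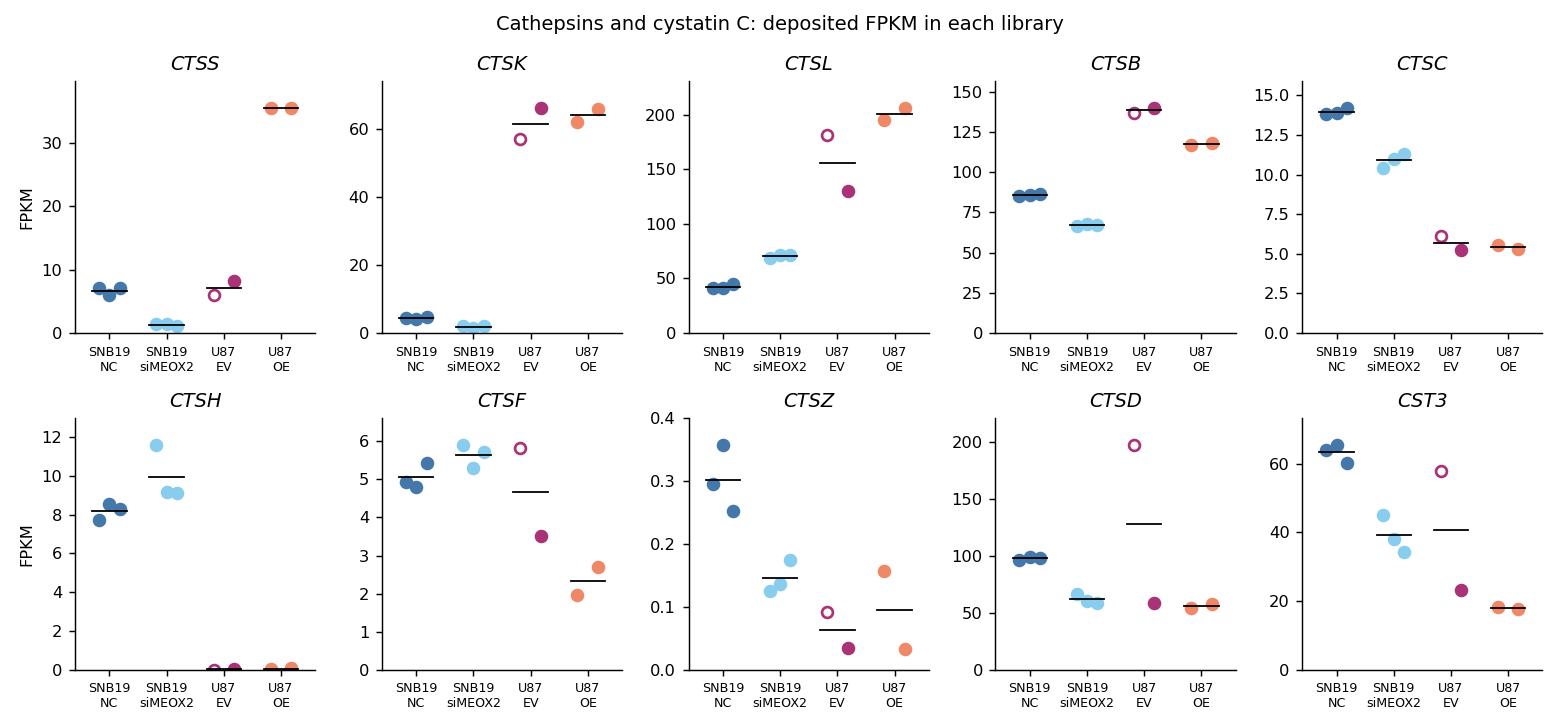
Deposited FPKM of each member in each of the 10 libraries, 1 panel per gene with its own linear axis from 0; points are libraries, the open point is U87-EV 1, and bars are group means. CTSS is lower in every SNB19-siMEOX2 library than in every SNB19-NC library and higher in both U87-OE libraries than in both U87-EV libraries, CTSK shows the first pattern only, and for CTSD, CST3, CTSF and CTSL the 2 U87-EV points are far apart.

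In U87, raising MEOX2 was accompanied by a rise of CTSS. The changes of the other tested members, its neighbour CTSK included, varied in size with the U87-EV library that served as the control. CTSB, CTSF and CST3 stayed lower with either control. They were at -0.22, -0.54 and -0.33 without U87-EV 1 and at -0.66, -1.75 and -2.12 without U87-EV 2. With all 10 libraries 4 of 9 members were called, where 26.2% of all genes were: CTSS was higher, and CTSB, CTSF and CST3 were lower. Of all called genes 43.0% were higher on counts and 58.2% with limma on log2(FPKM + 0.1). Without U87-EV 1, 5 of 9 were called, where 41.3% of all genes were: the same 4 and CTSL, which was higher. The calls of CTSB, CTSF and CST3 were each lost without either U87-OE library (edgeR adjusted p 0.0636 to 0.194), and that of CTSS was not.

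CTSS was at 6.03 and 8.24 FPKM in U87-EV and at 35.5 and 35.5 FPKM in U87-OE. Both overexpressing libraries were well above both controls. The gap between the 2 controls is one of FPKM only: after TMM scaling CTSS was at 36.7 and 36.6 CPM in U87-EV and at 156 and 158 in U87-OE, and all 4 pairings of an OE with an EV library gave a ratio between 4.24 and 4.32. The log2 fold change was 2.10 ± 0.15 (SE, n = 2 per group; edgeR adjusted p = 6.91e-05) and 2.14 ± 0.12 without U87-EV 1 (adjusted p = 1.54e-13). With all 10 libraries 1605 genes changed by at least as much, so the rise was less exceptional in size than the fall in SNB19. The 4 U87 libraries fitted alone called 0 of 17312 genes by edgeR, though 2835 had an unadjusted p under 0.05, and CTSS then had an adjusted p of 0.115. DESeq2 on all 10 libraries kept the call of CTSS.

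CTSK was at 57.1 and 66.3 FPKM in U87-EV and at 62.3 and 66.0 FPKM in U87-OE. The groups overlap, and the log2 fold change was -0.18 with a 95% interval of -0.54 to 0.19, or -0.01 with an interval of -0.22 to 0.19 without U87-EV 1. A change of CTSK like that of CTSS lies outside both intervals. Without U87-EV 2 instead, CTSK was at -0.27 on scaled counts, while by FPKM U87-EV 1 (57.1) was below both U87-OE libraries.

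CTSB was at 137 and 140 FPKM in U87-EV and at 117 and 118 FPKM in U87-OE, without overlap. Its log2 fold change was -0.49 ± 0.16 (SE; edgeR adjusted p = 0.0481) and -0.22 ± 0.07 without U87-EV 1 (0.0159). CTSB was therefore lower both where MEOX2 was lowered and where it was raised. It was the one member besides CTSS to be called in both lines with all 10 libraries. The U87 call was lost with RLE scaling (edgeR adjusted p = 0.0579), no filter (0.121), the replicate block (0.151) and limma on log2(FPKM + 0.1) (0.109). It held with upper-quartile scaling (0.0431), the stricter filter (0.0436) and DESeq2 (0.00978). CTSC, CTSD and CST3 also had negative values in both lines with all 10 libraries. Without U87-EV 1 those of CST3 were -0.77 and -0.33.

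CTSL, CTSD and CST3 show how far the control library mattered. CTSL was at 181 and 130 FPKM in U87-EV and at 195 and 206 FPKM in U87-OE. Its log2 fold change was 0.08 ± 0.25 with all libraries, 0.66 ± 0.08 without U87-EV 1 and -0.30 without U87-EV 2. On scaled counts its direction thus turns with the library left out. There CTSL was at 618 and 323 CPM in U87-EV and at 479 and 513 CPM in U87-OE. By FPKM both U87-OE libraries were above both controls. On log2(FPKM + 0.1) limma gave 0.38 (adjusted p = 0.108), where the median of all genes was itself 0.16.

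CTSD was at 198 and 58.6 FPKM in U87-EV and at 54.2 and 58.2 FPKM in U87-OE. U87-OE lies beside U87-EV 2 and far below U87-EV 1. The log2 fold change of -1.56 ± 0.52 (edgeR adjusted p = 0.0541) became -0.02 ± 0.09 without U87-EV 1.

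CST3 was at 57.8 and 23.3 FPKM in U87-EV and at 18.3 and 17.8 FPKM in U87-OE, so both treated libraries were below both controls. It was called lower at -1.51 ± 0.44 (SE; edgeR adjusted p = 0.0336) and at -0.33 ± 0.12 without U87-EV 1 (0.0269), a far smaller change. CTSF, a widely expressed cysteine cathepsin, was at 5.83 and 3.51 FPKM in U87-EV and at 1.96 and 2.71 FPKM in U87-OE. It was called lower at -1.30 ± 0.34 (edgeR adjusted p = 0.0232) and at -0.54 ± 0.21 without U87-EV 1 (0.0387).

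CTSC was at 6.11 and 5.21 FPKM in U87-EV and at 5.54 and 5.28 FPKM in U87-OE, with a log2 fold change of -0.33 (95% interval -0.78 to 0.11), or 0.09 without U87-EV 1. CTSH was nearly silent in U87, with 1 and 2 counts in U87-EV and 1 and 7 in U87-OE, and CTSZ had 3 and 1 counts and then 4 and 1. No difference of these 2 genes was detectable at this depth.

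**Figure D3:**
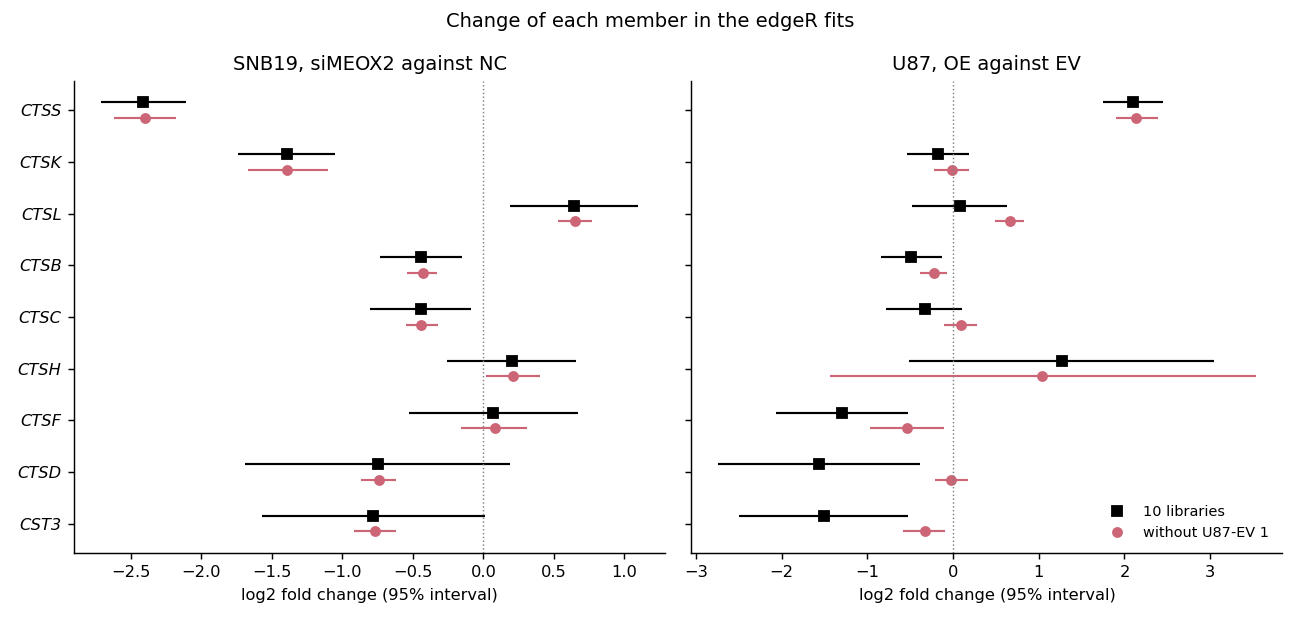
Log2 fold change with its 95% interval for the 9 members tested, in SNB19 (siMEOX2 against NC, left) and in U87 (OE against EV, right), from all 10 libraries (black squares) and without U87-EV 1 (red circles). CTSS has the largest change of either sign among the called members in both panels, at -2.41 and 2.10, and the U87 values of CTSD, CST3 and CTSF shift toward 0 without U87-EV 1.

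Across both lines CTSS was the only member called lower with less MEOX2 and higher with more MEOX2, with all libraries and without U87-EV 1. With all libraries 142 genes did so. That is 9.37% of the genes called lower in SNB19-siMEOX2, where 11.3% of all genes tested were called higher in U87-OE. It is 7.28% of those called higher in U87-OE, where 8.75% of all genes tested were called lower in SNB19-siMEOX2. Both shares lie below those over all genes, so the count of 142 says little by itself. Of these 142, 7 changed by at least 2 on the log2 scale both times, and CTSS and MEOX2 were among them.

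The size of the change with more MEOX2 was compared between the lines by the difference of the 2 effects. Delivery, time since treatment and puromycin selection differ along with the line, so their parts in this difference cannot be told apart. For CTSS this difference, SNB19 minus U87, was 0.31 with a 95% interval of -0.13 to 0.75 (edgeR adjusted p = 0.274), and 0.26 without U87-EV 1 (-0.07 to 0.59). Among all genes 24.4% were called for such a difference, and among the 9 members 4 were, all with the more positive effect in SNB19: CTSK (1.57 ± 0.22, adjusted p = 0.00124), CTSB (0.93 ± 0.20, 0.0106), CST3 (2.29 ± 0.56, 0.0179) and CTSD (2.31 ± 0.67, 0.0345). Without U87-EV 1, 45.5% of all genes were called and 6 of the members were. CTSK then stood at 1.40 ± 0.17, CST3 at 1.10 ± 0.14, CTSD at 0.77 ± 0.11, CTSB at 0.66 ± 0.09 and CTSC at 0.35 ± 0.11. CTSL was at -1.31 ± 0.10, the one called member with the more negative effect in SNB19, and CTSH was at -1.25 and not called. CTSK thus fell in SNB19 with no rise in U87 in any of these fits, whereas the 2 CTSS effects could not be told from each other in size.

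Before any change of MEOX2 the 2 lines carried different sets of cathepsins. Of the 9 members, 6 were called different between SNB19-NC and U87-EV, where 56.9% of all genes were, and 8 without U87-EV 1, where 66.4% were. Line, delivery by lipofection or lentivirus, transient or stable handling with puromycin selection, and any batch differ together here and cannot be told apart.

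In SNB19-NC the order of mean levels was CTSD (98.1 FPKM), CTSB (86.0), CST3 (63.3), CTSL (42.5), CTSC (14.0), CTSH (8.18), CTSS (6.71), CTSF (5.06), CTSK (4.48) and CTSZ (0.302), and no 2 neighbours in that order overlapped over the 3 libraries. In U87-EV it was CTSL (156 FPKM), CTSB (139), CTSD (128), CTSK (61.7), CST3 (40.5), CTSS (7.14), CTSC (5.66), CTSF (4.67), CTSZ (0.063) and CTSH (0.0173). There CST3 did not overlap CTSS, CTSF did not overlap CTSZ and CTSZ did not overlap CTSH, and every other neighbouring pair overlapped over the 2 libraries.

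CTSK and CTSH differed most between the lines, in opposite directions. CTSK was higher in U87-EV, with a log2 difference (SNB19-NC minus U87-EV) of -4.16 ± 0.16 (edgeR adjusted p = 1.86e-07). CTSH had 2202 counts over the 3 SNB19-NC libraries and 3 over both U87-EV libraries, a ratio of scaled counts of 375 with a counting interval of 128 to 1820. CTSL (-2.30 ± 0.23) and CTSB (-1.08 ± 0.14) were also higher in U87-EV, and CTSC (0.90 ± 0.18) was higher in SNB19-NC. CTSS was close in both controls, at 5.95 to 7.1 FPKM and at 6.03 and 8.24 FPKM. It was called higher in U87-EV on scaled counts, at -0.44 ± 0.14 (edgeR adjusted p = 0.0202; 0.0754 without SNB19-NC 2), and not on log2(FPKM + 1), where limma gave -0.07 (adjusted p = 0.7) and the median of all genes was itself 0.21. CTSD, CST3 and CTSF have no stable direction. CTSD was at -0.90 with all libraries and 0.59 without U87-EV 1, CST3 at 0.16 with all libraries and -0.51 without U87-EV 2, and CTSF at -0.33 with all libraries, 0.38 without U87-EV 1 and -0.84 without U87-EV 2 (edgeR adjusted p = 1.95e-05).

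CTSS made up a small part of the cathepsin transcripts throughout. As a share of the summed FPKM of the 9 cathepsins it was 2.25% to 2.70% in SNB19-NC and 0.517% to 0.62% in SNB19-siMEOX2. It was 1.02% and 2.0% in U87-EV and 7.53% and 7.23% in U87-OE. CTSB, CTSD and CTSL together took 77.6% to 87.5% in every library. CTSL made up 15.7% to 16.6% of the pool in SNB19-NC and 29.4% to 31.6% in SNB19-siMEOX2, and CTSD 36.5% to 37.5% and 25.9% to 28.6%. The summed level was 262 to 270 FPKM in SNB19-NC, 227 to 234 FPKM in SNB19-siMEOX2, 591 and 412 FPKM in U87-EV and 471 and 491 FPKM in U87-OE. FPKM describes transcripts, and neither protein nor activity was measured here.

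**Figure D4:**
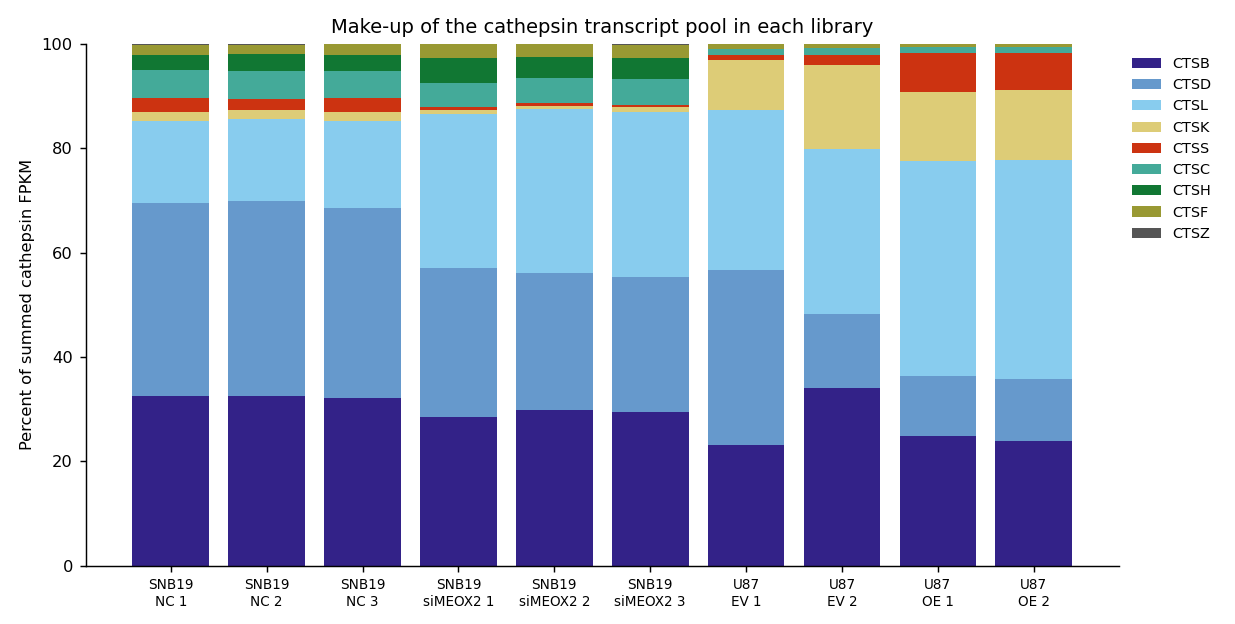
Share of each of the 9 cathepsins in their summed FPKM, as stacked percentages for each of the 10 libraries. The CTSS band (red) is 2.25% or more in SNB19-NC, 0.62% or less in SNB19-siMEOX2 and 7.23% or more in U87-OE, while CTSB, CTSD and CTSL fill most of every bar.

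Genes around the members were read from lists. Of 7 other cathepsins, 6 were tested, and 3 were called lower in SNB19-siMEOX2, beside 15.7% of all genes called: CTSO (-0.88 ± 0.16, edgeR adjusted p = 0.00761), CTSE, an aspartic protease near the detection limit (-2.27 ± 0.60, 0.0372), and CTSA, a carboxypeptidase (-0.42 ± 0.11, 0.0376). The median of the 6 was -0.29. None was called higher with all libraries, and without U87-EV 1, where 49.7% of all genes were called, NAPSA, an aspartic protease of lung and kidney, was called higher (1.64, adjusted p = 0.00446) at means of 0.142 and 0.467 FPKM. In U87-OE 0 of the 6 were called by edgeR with all libraries, with a median of -0.28, and CTSA was at -0.22 without U87-EV 1. Of 10 other cystatins and inhibitors 4 were tested, with 0 called in SNB19 and SERPINB4 called higher in U87-OE (1.45 ± 0.40, adjusted p = 0.0268). That call stands beside 26.2% of all genes called in U87. CSTB, the cytosolic inhibitor stefin B, had means of 161 FPKM in U87-EV and 286 FPKM in U87-OE, and its log2 fold change was 0.50 ± 0.35 with all libraries and 1.41 without U87-EV 1 (edgeR adjusted p = 4.6e-12). In SNB19-siMEOX2 it was called lower without U87-EV 1 (-0.50, adjusted p = 3.33e-07). CSTA, the related stefin A, was at 1.48 in SNB19-siMEOX2 and at 3.74 in U87-OE without U87-EV 1.

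Of 8 sorting and maturation genes, 1 was called in SNB19 and 2 in U87 with all libraries, beside 15.7% and 26.2% of all genes. PSAP, which encodes the saposin precursor, was called lower in SNB19-siMEOX2 (-1.06 ± 0.12, edgeR adjusted p = 0.000759), from a mean of 595 to one of 302 FPKM. In U87 its means were 446 FPKM in U87-EV and 640 FPKM in U87-OE. The log2 fold change was 0.29 ± 0.14 (edgeR adjusted p = 0.152), or 0.43 without U87-EV 1. In U87-OE the sorting receptor gene SORT1 (-1.42 ± 0.21, adjusted p = 0.00163) and NAGPA, which uncovers the mannose 6-phosphate tag (-1.01 ± 0.26, 0.0225), were lower, and NAGPA lost the call without U87-EV 1 (adjusted p = 0.0599). The mannose 6-phosphate receptor genes IGF2R and M6PR were not called in either line with all libraries. Without U87-EV 1, IGF2R was at 0.61 and M6PR at 0.32 in U87-OE, where the median absolute change over all genes was 0.48. In SNB19-siMEOX2 that fit gave -0.61 for NAGPA, -0.29 for GNPTAB and -0.21 for LGMN, where that median was 0.35.

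Of 4 tested regulators of lysosomal genes, MITF was higher both in SNB19-siMEOX2 (0.70 ± 0.13, edgeR adjusted p = 0.00745) and in U87-OE (0.89 ± 0.17, 0.00558). Of all genes, 15.7% were called in SNB19 and 26.2% in U87. In U87-OE, TFE3 was higher (0.61 ± 0.19, 0.0395) and TFEB lower (-1.84 ± 0.30, 0.00267), and both calls held without U87-EV 1. In SNB19-siMEOX2 TFE3 was at -0.40 without U87-EV 1. The 2 members with CACGTG in the promoter printed above are CTSD and CTSF. With all 10 libraries they had log2 fold changes of -0.75 and 0.07 in SNB19 and of -1.56 and -1.3 in U87. Without U87-EV 1 the U87 values were -0.02 and -0.54.

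The partners of CTSS in antigen presentation went the other way in U87. All 5 tested were called lower in U87-OE, where CTSS was higher, beside 26.2% of all genes called and 14.9% called lower. They were CD74, the invariant chain (-3.31 ± 0.26, edgeR adjusted p = 8.35e-05), HLA-DMA (-3.35 ± 0.47), CIITA, the class II transactivator (-1.59 ± 0.25), HLA-DRA (-2.20 ± 0.53) and HLA-DMB (-2.53 ± 0.66). HLA-DMB lost the call without U87-EV 1 (adjusted p = 0.0548). CD74 was at a mean of 12.3 FPKM in U87-EV and 1.49 FPKM in U87-OE. HLA-DMB was near the detection limit, at means of 0.232 and 0.0453 FPKM. In SNB19-siMEOX2, where CTSS was lower, none of the 5 was called with all libraries, with a median of 0.51. Without U87-EV 1, CD74 was at 0.79, CIITA at 0.51, HLA-DMB at 1.17, HLA-DRA at 0.35 and HLA-DMA at -0.17 there. The median absolute change over all genes tested was 0.35 in that fit. CD74, CIITA and HLA-DMB were at means of 0.102 to 0.463 FPKM in SNB19-NC and 0.245 to 0.853 FPKM in SNB19-siMEOX2.

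Of 5 factors known to act on the CTSS promoter 3 were tested, and IRF2 was called higher in U87-OE (1.28 ± 0.30, edgeR adjusted p = 0.0145) and none in SNB19. The shares of all genes called were 26.2% in U87 and 15.7% in SNB19. Of 5 genes beside CTSS and CTSK on chromosome 1 none was called in either line with all 10 libraries, with medians of 0.23 and 0.20. Without U87-EV 1, IRF2 was at -0.41 in SNB19-siMEOX2. In that same fit ENSA was at 0.50, MCL1 at 0.24 and SETDB1 at 0.25 in SNB19-siMEOX2. The median absolute change over all genes tested was 0.35 there.

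The genes whose levels ran most like CTSS were sought among all tested genes by the correlation of log2 CPM after removing each line's mean, over the 10 libraries. Among the highest were EPC1 (r = 0.983), GPR137B, a lysosomal membrane protein (0.983), TBCC (0.979) and TPST1 (0.978). The log2 fold changes of these 4 were -1.09 to -0.51 in SNB19-siMEOX2 and 0.38 to 0.95 in U87-OE, smaller than those of CTSS. Among the members CTSK came nearest at 0.725, with order number 1296 in that ranking, and MEOX2 itself was at 0.761. The libraries share their line, treatment and depth, so these values describe likeness and are not tested.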

How the data were processed

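Poly(A) mRNA libraries of 10 samples, 3 SNB19-NC, 3 SNB19-siMEOX2, 2 U87-EV and 2 U87-OE, were sequenced as 150 bp paired-end reads. Per the labels, the authors used HISAT2, HTSeq (version 0.11.2) and DESeq2 (version 1.26.0) on GRCh38, and the strand setting of the counting is not given in the sources used here. The deposited table holds 1 row per gene with raw read counts and FPKM values, both made by the authors, for 34567 Ensembl genes. All 34567 identifiers are in GENCODE release 29, and the exon lengths behind the members' FPKM equal its exon unions. All count columns were mapped to samples by their names. The treatment labels of 3 U87 samples read MEOX3, MEOX4 and MEOX5, so groups were taken from the titles, which the MEOX2 counts match.

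Counts were filtered (filterByExpr over the 4 groups, 17312 genes), scaled by TMM and tested with edgeR (version 4.0.16; glmQLFit and glmQLFTest) in a model of 4 group means over all 10 libraries, with Benjamini-Hochberg adjustment over all genes and a call at an adjusted p under 0.05. The study's limits on fold change and p were an alternative, as were RLE and upper-quartile scaling, no filter and a stricter filter, DESeq2 (version 1.42.0), limma (version 3.58.1) on log2(FPKM + 0.1) and log2(FPKM + 1), the libraries of 1 comparison alone, a replicate block and leaving out each library. The code was tested on simulated data. Counting error alone underlies the interval given for CTSH.

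All members and MEOX2 were named. From each list the called genes were named, up to 4 per comparison by adjusted p; CSTB, IGF2R, M6PR, MEOX1 and the list genes called only without U87-EV 1 were named after their values were seen. Of the 5 genes most like CTSS, 1 is not reported here, nor is 1 gene of the lists. The members and lists were chosen with earlier results of these data known.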

Additional observations from a re-analysis of the deposited data

Results flagged for a closer look

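For 4 members the change with more MEOX2 differed between the lines by the test of that difference (SNB19 minus U87, log2, all 10 libraries). CTSK differed by 1.57 (edgeR adjusted p = 0.00124), and stood at 1.40 without U87-EV 1. It kept the call without each library in turn. CTSB differed by 0.93 (adjusted p = 0.0106) and by 0.66 without U87-EV 1, and lost the call without U87-OE 1 (0.0546).

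CST3 differed by 2.29 (edgeR adjusted p = 0.0179) and by 1.10 without U87-EV 1, and lost the call without either U87-OE library (0.0753 and 0.0754). CTSD differed by 2.31 (adjusted p = 0.0345) and by 0.77 without U87-EV 1. That call was lost without any 1 of the SNB19 libraries (0.0654 to 0.0796) and without either U87-OE library (0.107 and 0.124). In U87-EV 1 these 2 genes had 3.39 and 4.62 times their level in U87-EV 2, and the part of that library's make-up in the difference was not tested.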

How the results depend on the processing

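CTSS kept its direction and its call in SNB19 under every alternative run, and in U87 under all but the fit of the 4 U87 libraries alone, where its adjusted p was 0.115. The number of members called in SNB19, 3, became 5 with no filter, 5 with limma on log2(FPKM + 1) and 8 with the SNB19 libraries alone, and ran from 2 to 7 when 1 library was left out, the 7 being without U87-EV 1, which was tried for SNB19 after seeing the data. The number called in U87, 4, became 0 with the U87 libraries alone, 2 with limma on log2(FPKM + 0.1), 2 with limma on log2(FPKM + 1), and ran from 1 to 8 when 1 library was left out. For the difference between lines, 4 members became 1 to 7 when 1 library was left out. The number different between the control lines did not move by over 1.5 times. On scaled counts, directions turned for CTSL in U87 (-0.30 without U87-EV 2 and 0.66 without U87-EV 1). Between the controls they turned for CTSF (0.38 without U87-EV 1 and -0.84 without U87-EV 2). The same held there for CTSD (0.59 without U87-EV 1 and -1.65 without U87-EV 2). It also held for CST3 (-0.51 without U87-EV 2 and 1.29 without U87-EV 1). Values that were not called turned also for CTSC in U87 (0.09 without U87-EV 1), CTSH in U87 (-0.51 without U87-OE 2), CTSK in U87 (0.06 with limma) and the CTSS difference between lines (-0.07 and -0.46 with limma on log2(FPKM + 0.1) and log2(FPKM + 1)). The cause of these changes was not tested.

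Deviations of same-numbered SNB19 libraries correlated at -0.022, -0.038 and 0.09, so the replicate numbers gave no sign of pairing there. Those of same-numbered U87 libraries correlated at -0.315 and those of crossed numbers at 0.315. With 2 libraries per group these values must mirror each other, so they cannot decide whether the U87 numbers pair. With a replicate block 2 members were called in SNB19 (CTSS and CTSK), 1 in U87 (CTSS) and 1 for the difference between lines (CTSK). Crossing the U87 numbers, a choice made after seeing the data, gave 2 (CTSS and CTSF). No paired analysis was possible for the control lines because they share no culture or treatment.

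Genes called in SNB19 numbered 2725, and 8859 in the SNB19 libraries alone, 8599 without U87-EV 1, 972 with the block and 1137 to 1483 without 1 SNB19 library. In U87, 4538 became 0 alone, 2126 with the block, 7148 without U87-EV 1, 10839 without U87-EV 2 and 1672 and 1796 without 1 U87-OE library. For the difference between lines, 4229 became 2215 with the block and 2330 to 10360 without 1 library. On log2(FPKM + 0.1) the median of all genes moved to 0.16 in U87 and 0.41 between the controls, where 68.3% of called genes were higher in SNB19-NC against 49.4% on counts, and 38.4% against 58.1% of genes called for the difference between lines had the higher effect in SNB19. CTSZ and, in U87, CTSH were limited by depth.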
